A study of Mus musculus with 30 samples.

Results

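The response of satellite cells from old muscle to injury was measured as the change in gene expression between rest and 60 h after damage. Activated satellite cells (ASCs) sorted 60 h after injury (3 arrays) were set against quiescent satellite cells (QSCs) from uninjured muscle (3 arrays), both from wildtype C57BL6 mice aged 22 to 24 months. These 6 of the 30 arrays of the series were taken by their sample titles, and no expression value entered the choice. Injured hindlimb muscles had received BaCl2, a salt that kills myofibers and spares many satellite cells, and cells of both groups were sorted as VCAM+, CD31-, CD45- and Sca1-. Affymetrix Mouse Gene 1.0 ST arrays read total RNA, and each value is a log2 intensity after RMA, in which a step of 1 is a doubling. Of 35556 probe sets, 21789 named a single gene, and 1 probe set was kept for each of 19938 genes. For comparison, 6 arrays of the same sort and genotype came from mice aged 2 to 3 months (3 QSC and 3 at 60 h), with young arrays at 36 h and 84 h given for levels only. A further young set came from Pax7CreER/+;ROSA26eYFP/+ mice, sorted on YFP, which marks cells in which Cre from the Pax7 locus was active and their progeny. Whether arrays of one group represent separate animals is not stated, so every p-value measures the spread between arrays, which may be technical.

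Satellite cells are the stem cells of skeletal muscle and lie between the myofiber and its basal lamina. At rest they express the paired-box factor Pax7 and depend on Notch signalling to stay out of the cell cycle. After injury they enlarge, enter the cycle, divide as myoblasts under Myod1 and Myf5, and later induce myogenin (Myog), leave the cycle and fuse into new fibers, while a smaller share returns to rest. Regenerating muscle also fills with macrophages, fibro-adipogenic progenitors and vessel cells, which the sort was meant to leave out.

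Pax7 and Vcam1 were read in both groups as checks of the satellite cell label, and both were lower at 60 h. Of the other satellite cell markers, given below, Calcr and Chodl fell further than Pax7 and Itga7 rose. These values alone do not establish the label at 60 h. Pax7 read 11.11, 11.15 and 11.08 in old QSCs and 9.05, 9.09 and 9.18 in old 60 h ASCs. Vcam1, the surface protein used in the sort, read 12.82 to 12.90 in QSCs and 12.39 to 12.41 at 60 h. The 2 measured genes of the negative gates behaved differently from each other. Pecam1, which encodes CD31, read 9.78, 9.80 and 9.76 in QSCs and 8.67, 8.66 and 8.75 at 60 h. Ptprc, which encodes CD45, read 6.37, 6.21 and 6.43 in QSCs and 9.09, 9.19 and 9.17 at 60 h, so every 60 h array was above every QSC array. Leukocyte markers are therefore given beside the immune genes. In a sorted population, fewer cells of a type and less RNA per cell cannot be told apart.

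Old cells changed over much of the transcriptome. At 60 h 5890 of 19938 genes (29.5%) passed an adjusted p under 0.05 with a fold of at least 1.5, of which 3556 rose (17.8%) and 2334 fell (11.7%). Every gene with that fold also passed the p, so the fold alone set these calls. The tested genes had a median log2 change of -0.11, and quantile normalization over them gave 3036 rises and 2927 falls. Rises were also the larger: 494 genes rose and 178 fell by 4-fold or more. The 3 arrays of the groups did not overlap for 71.6% of all genes, a measure of how tightly the arrays of a group agreed. They did not overlap for any of the 5890 called genes, so a lack of overlap adds nothing to a call. The median standard error of a log2 change was 0.08. In young cells 5831 genes (29.2%) were called, 3312 up and 2519 down, with 392 rises and 393 falls of 4-fold or more. Across the 19938 genes, which are not independent replicates, the old and young changes correlated with a Pearson r of 0.896 and a Spearman rho of 0.847. The plot of old against young changes shows one diagonal band with a group of genes above it.

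**Figure D1:**
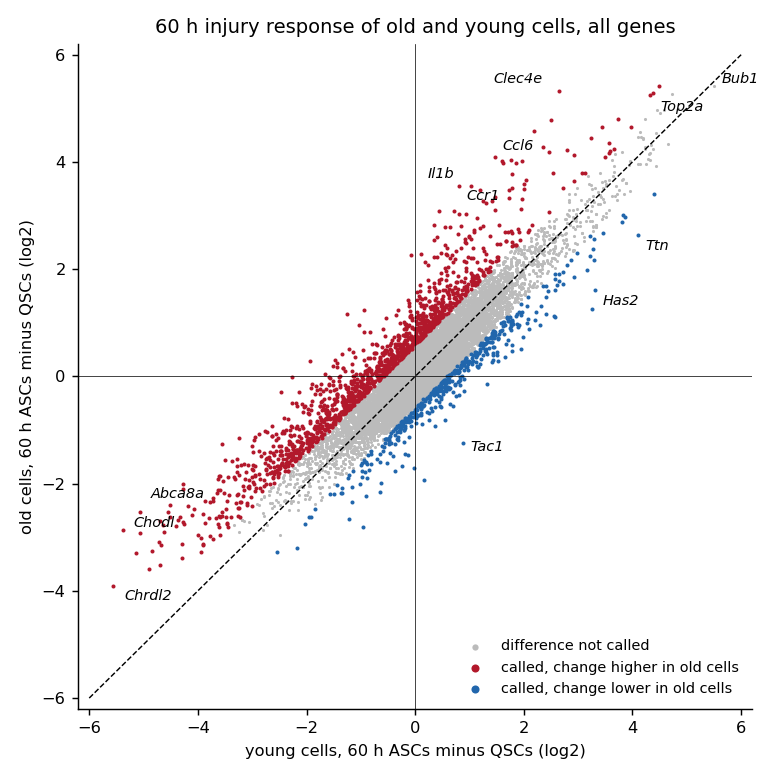
Log2 change from QSC to 60 h ASC in young cells (x axis) against the same change in old cells (y axis), 1 point for each of 19938 genes, coloured where the difference between the 2 changes was called. The 1358 genes above the band changed more positively in old cells and the 430 below it more negatively.

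The cell cycle supplied most of the largest rises in old cells. Bub1, a spindle checkpoint kinase, read 5.09, 4.97 and 5.19 in old QSCs and 10.44, 10.49 and 10.55 at 60 h. This 42.5-fold rise (log2 change 5.41 ± 0.07, SE, n = 3 arrays a group; limma adjusted p = 4.9e-28) and that of the linker histone H1f5, also 5.41, were the largest of all genes. Top2a, the topoisomerase that untangles replicated chromosomes, went from 6.23, 6.44 and 6.50 to 11.68, 11.63 and 11.73, a rise of 39.1-fold. Anln, a scaffold of the cleavage furrow, rose by 38.2-fold and Hells, a chromatin remodeller of dividing cells, by 37.8-fold. Racgap1, needed for cytokinesis, rose from a mean of 6.27 to 11.08. As for every called gene, the arrays of the 2 groups did not overlap for these genes.

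Nearly every gene listed for division moved in this direction. Of 80 genes of mitosis, spindle and kinetochore, 79 rose and 1 fell, with a median log2 change of 3.16. The exception was Pttg1, the securin that restrains sister chromatid separation, which read 9.34, 9.33 and 9.33 in QSCs and 8.26, 8.33 and 8.35 at 60 h. Of 56 genes of DNA replication and nucleotide supply, 55 rose, with a median of 2.44. Mcm2, a subunit of the replicative helicase, rose by 12-fold from 7.49, 7.54 and 7.57 to 11.11, 11.14 and 11.12. Rrm2, which makes deoxynucleotides, rose by 12.2-fold, and Cdc6, which loads the helicase, by 10.2-fold. The remaining replication gene, Timeless, passed the p but not the fold.

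Cyclins and their kinases followed the same course, with the D-type cyclins split. Of 21 listed genes 18 rose and none fell. Ccna2, the cyclin of S phase and mitotic entry, read 6.50, 6.82 and 6.49 in QSCs and 11.41, 11.42 and 11.39 at 60 h. Cdk1, the mitotic kinase, went from 6.30, 6.41 and 6.05 to 10.73, 10.63 and 10.77, a rise of 22-fold. Ccnd1, the cyclin through which growth factors drive G1, rose from 10.09, 10.08 and 10.16 to 12.08, 12.10 and 12.06. Ccnd2 (log2 change -0.12) and Ccnd3 (-0.25) were not called. Cdk4, a partner of the D-type cyclins, rose by 2.53 and E2f8, a repressor of the E2F family made in S phase, by 4.17 on the log2 scale.

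Genes that restrain the cycle did not move as a block. Of 20 listed, 6 rose and 4 fell, with a median of 0.32, whereas with quantile normalization 5 rose and 7 fell, with a median of 0.16. Btg2, an antiproliferative gene induced by p53 and by stress, fell by 2.32 on the log2 scale, and Tob1, of the same family, by 0.85. Ccng1, on the same list, rose by more than Btg2 fell, as given under other observations. The Cdk inhibitors Cdkn1b (-0.11), Cdkn1c (0.52) and Cdkn2a (0.55) were not called, and Cdkn2c rose by 0.74. Cdkn2a, a marker of senescent cells, read 6.64, 6.50 and 6.79 in QSCs and 7.13, 7.13 and 7.32 at 60 h. The groups were separate for Cdkn2a, but the step was under the fold used here. DNA repair genes rose in 37 of 45 cases, with none lower and a median of 1.42. Among them Brca1, which acts in repair by homologous recombination, rose by 12.4-fold and the checkpoint kinase Chek1 by 8.1-fold.

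Histones rose with the replication genes. Of 28 replication-dependent histone genes 19 rose and none fell, with a median of 1.23. H1f5 read 7.10, 6.92 and 7.17 in QSCs and 12.45, 12.47 and 12.52 at 60 h, and H2ac4 went from a mean of 4.18 to 8.22. Copies of these genes are nearly identical in coding sequence, so the value of a single copy is uncertain. Of 19 histone variants and chaperones 15 rose. Asf1b, a chaperone for new histones, rose by 11.7-fold and Cenpa, the centromeric variant, by 8.64-fold.

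The promoters of the mitotic genes carry the letters that such genes are known for. Genes expressed late in the cycle often hold a CHR element (TTTGAA), bound by the DREAM complex in resting cells, spaced near CCAAT boxes (CCAAT), bound by NF-Y. In the window from 250 bases before to 50 after each start in RefSeq (GRCm38.p6), searched on both strands, 46 of the 66 mitosis genes with a promoter (69.7%) held TTTGAA, against 17.3% of the 15614 tested genes with one. The share was 42.5% for the 100 genes with the largest rises, 16.7% for the replication list and 16.1% for all genes that rose in old cells, so TTTGAA was not more frequent among the rises as a whole. CCAAT stood in 71.2% of the mitosis promoters and in 41.7% of all. An E2F site (any of TTTCGCGC, TTTGGCGC, TTTCCCGC and TTTGCCGC) stood in 37.5% of the replication promoters and in 3.48% of all. None of these motifs contains another, and a match is a run of letters, not a bound site. The promoters of Cdk1 and Ccnb2 are shown as the kinase and the cyclin of mitosis, 5′ to 3′ on the gene's strand, with the CHR element, the CCAAT box on either strand and the E2F site in capitals.
Cdk1 promoter, chr10:69352863-69353162, minus strand: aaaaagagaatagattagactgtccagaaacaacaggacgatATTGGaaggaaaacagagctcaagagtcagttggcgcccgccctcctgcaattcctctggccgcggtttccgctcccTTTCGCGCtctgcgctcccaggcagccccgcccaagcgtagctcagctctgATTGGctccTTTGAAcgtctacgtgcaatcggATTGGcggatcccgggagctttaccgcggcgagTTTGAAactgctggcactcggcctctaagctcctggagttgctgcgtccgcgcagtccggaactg
Ccnb2 promoter, chr9:70421505-70421804, minus strand: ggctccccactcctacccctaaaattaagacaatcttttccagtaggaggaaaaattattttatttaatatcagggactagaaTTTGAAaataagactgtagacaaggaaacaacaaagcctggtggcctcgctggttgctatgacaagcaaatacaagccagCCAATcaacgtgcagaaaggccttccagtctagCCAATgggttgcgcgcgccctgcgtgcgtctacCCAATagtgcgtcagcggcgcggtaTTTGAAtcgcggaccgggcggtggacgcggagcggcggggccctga

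The Cdk1 window held 2 CHR elements, first bases at -71 and -15 from the start, 3 CCAAT boxes and 1 E2F site. The Ccnb2 window held 2 CHR elements and 3 CCAAT boxes, at -87, -54 and -21. Ccnb2, a mitotic cyclin, read 7.66, 7.68 and 7.37 in old QSCs and 10.68, 10.65 and 10.69 at 60 h, an 8.6-fold rise. The plot of single arrays gives the values of these and other genes of the cycle and of quiescence.

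**Figure D2:**
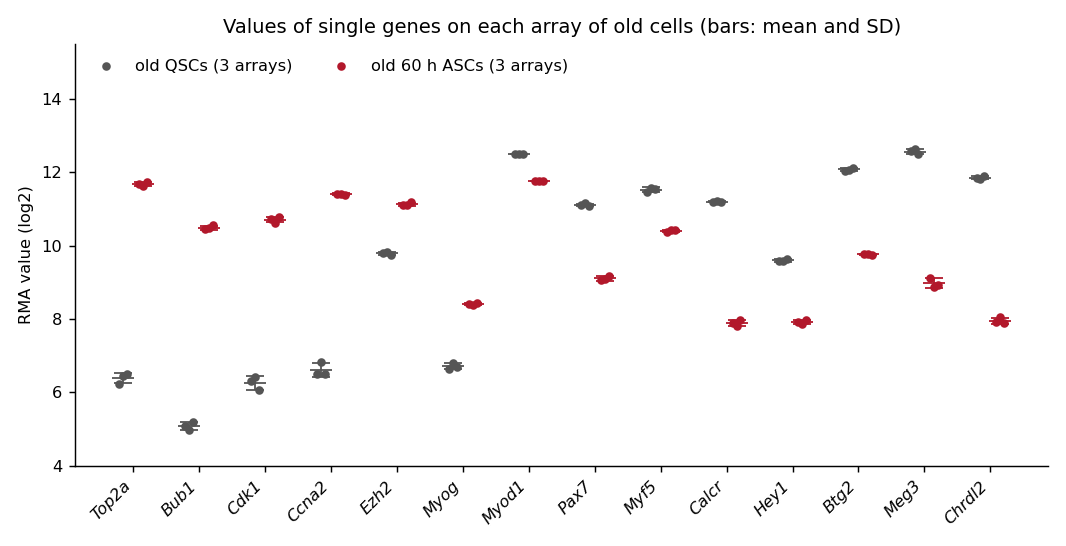
Log2 RMA value (y axis) of 14 genes on each of the 3 arrays of old QSCs and of old 60 h ASCs, with the group mean and SD. Cycle genes such as Bub1 and Top2a lie far higher at 60 h, while Calcr, Chrdl2 and Meg3 lie far lower. The 2 groups of points do not meet, as for every called gene.

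Markers of the quiescent satellite cell fell. Of 32 genes of satellite cell identity and quiescence 18 fell and 3 rose, with a median of -0.92 against -0.11 for all genes. Chrdl2, a secreted BMP antagonist, had the largest fall of any gene, from 11.85, 11.83 and 11.89 to 7.91, 8.05 and 7.90 (log2 change -3.91 ± 0.07, SE; limma adjusted p = 1.8e-25). Calcr, the calcitonin receptor that holds satellite cells at rest, went from 11.19, 11.21 and 11.18 to 7.89, 7.82 and 7.97. Both genes had left their QSC range on all 3 arrays at 60 h, as had every called gene. Spry1, an inhibitor of growth factor signalling that satellite cells need for the return to rest, fell by 2.46, and Chodl, a membrane lectin, fell by 2.87 on the log2 scale. Pax7 fell by 2.00 and its paralog Pax3 fell by 1.65.

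Some surface markers of the lineage stood apart from this fall. Cd34 read 11.63, 11.57 and 11.62 in QSCs and 11.33, 11.40 and 11.41 at 60 h, a log2 change of -0.23 that was not called. Cdh15, the cadherin that anchors the cell to the fiber, changed by -0.51 and Vcam1 by -0.46, both under the fold. Itga7, the laminin receptor of myogenic cells, rose by 1.29 and Met, the receptor for hepatocyte growth factor, by 1.03. Outside the list, Cebpd, a CCAAT/enhancer binding factor, fell by 3.38. Erfe, the hormone erythroferrone, fell by 3.27, and Dmd, which encodes dystrophin, by 3.15. Tshr, the thyrotropin receptor, fell from 9.52, 9.61 and 9.37 to 6.10, 6.45 and 6.37.

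The imprinted Meg3 locus fell along its whole measured length. Meg3 is a long noncoding RNA made from the maternal copy of chromosome 12, and the same transcription unit carries one of the largest clusters of miRNA genes of the mouse. Meg3 read 12.57, 12.64 and 12.49 in old QSCs and 9.12, 8.86 and 8.93 at 60 h, a 12.1-fold fall. All 46 genes measured from Meg3 to Mir369 fell, against 11.7% of all genes. They included Rian (log2 change -2.93), a noncoding host of small nucleolar RNAs, and Rtl1 (-0.95), a retrotransposon-derived gene of the locus. Of the 46, 40 were miRNA genes, with a median change of -1.81. The steepest was Mir380, from 8.76, 8.86 and 8.71 to 5.20, 5.50 and 5.08. A probe set over a miRNA gene reads RNA that covers that stretch, and mature miRNAs were not measured.

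**Figure D3:**
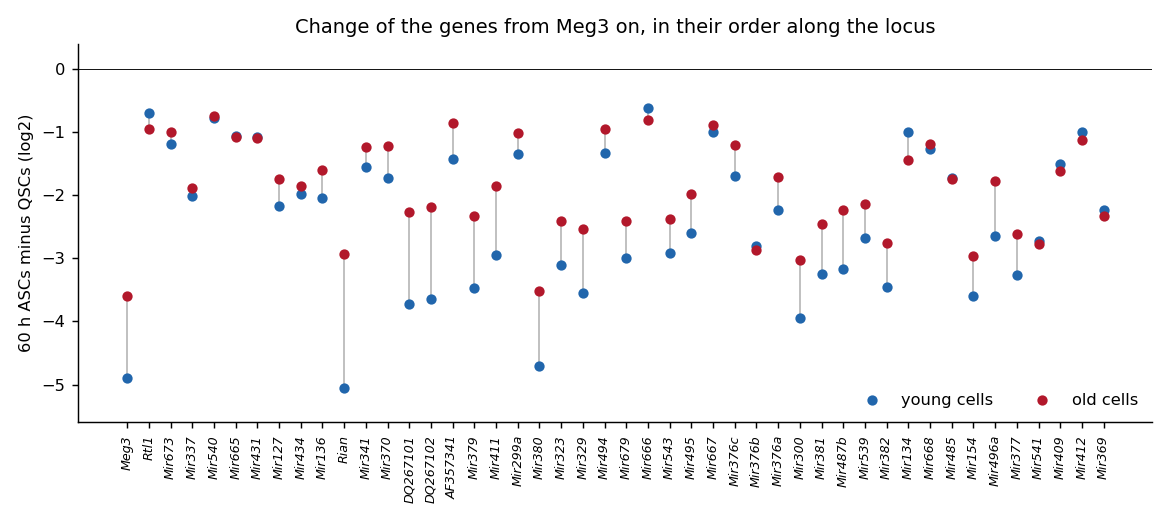
Log2 change from QSC to 60 h ASC (y axis) in old and in young cells for the 46 measured genes from Meg3 to Mir369, in their order along the chromosome (x axis). Every gene lies below 0 in old cells, and Meg3 and Mir380 lie lowest.

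The 40 miRNA genes encode 76 mature arms in RefSeq (GRCm38.p6) with 74 distinct seeds, the bases 2 to 8 that pair with targets. Only 2 seeds were shared by 2 arms each. The arms with a shared seed are shown first, then an arm of each of the 3 miRNA genes with the largest falls, with the seed in capitals.
miR-379-3p, chr12:109709102-109709123, plus strand: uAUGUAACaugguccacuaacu
miR-411-3p, chr12:109710225-109710246, plus strand: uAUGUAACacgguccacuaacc
miR-376c-5p, chr12:109722733-109722754, plus strand: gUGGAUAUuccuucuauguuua
miR-376b-5p, chr12:109723471-109723492, plus strand: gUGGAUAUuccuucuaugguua
miR-380-3p, chr12:109711842-109711863, plus strand: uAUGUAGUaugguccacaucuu
miR-300-3p, chr12:109724363-109724384, plus strand: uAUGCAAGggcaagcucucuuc
miR-154-3p, chr12:109738474-109738495, plus strand: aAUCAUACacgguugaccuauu

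The genes behind the first pair, Mir379 and Mir411, had log2 changes of -2.33 and -1.85. Those behind the second pair, Mir376c and Mir376b, fell by 1.20 and 2.86. Mir376c was dim, at a mean of 4.79 in QSCs and 3.59 at 60 h, which limits the fall that could be read. Mir300 fell by 3.02 and Mir154 fell by 2.96.

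Genes of the Notch pathway, which keeps satellite cells at rest, fell among receptors and targets. Of 32 genes of the pathway 14 fell and 4 rose, with a median of -0.45. Among the receptors, Notch3 went from 11.40, 11.42 and 11.49 to 9.47, 9.39 and 9.45, and Notch1 fell by 0.97. The target Hey1, a transcriptional repressor, read 9.58, 9.57 and 9.64 in QSCs and 7.92, 7.87 and 7.96 at 60 h. Its relatives Heyl (log2 change -1.65) and Hes1 (-1.39) fell as well. The nuclear partner of all Notch receptors, Rbpj, had group means of 10.98 in QSCs and 10.97 at 60 h (log2 change -0.01, adjusted p = 0.75 by limma). Of the ligands Dll1 rose by 0.66, as did the sheddases Adam10 (1.05) and Adam17 (1.02), which cut the receptors. Notch3 is also a pericyte marker, and 9 of 16 pericyte and 15 of 20 endothelial markers fell on the same arrays. Their part in these falls was not tested, and pathway activity was not measured.

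Immediate early genes, which are switched on within minutes by stress and by growth factors, were lower at 60 h than in QSCs. Of 45 listed genes 35 fell and 1 rose, with a median of -1.19. Egr1, a zinc finger factor, read 12.83, 12.75 and 12.76 in QSCs and 10.64, 10.77 and 10.69 at 60 h. Fos fell by 1.72, Atf3 fell by 2.05 and Jun by 0.80 on the log2 scale. Both groups were dissociated with enzymes before the sort, per the study's methods, a step known to induce these genes, and the part of handling in their levels was not tested. The gene that rose was Klf10. Of 29 heat shock chaperones 15 fell and 3 rose, with Hspa1a, an inducible Hsp70, going from 13.77, 13.74 and 13.69 to 11.66, 11.70 and 11.84.

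A cAMP response element, TGACGTCA, which is its own reverse complement, stood in the promoters of 3 of the 37 immediate early genes with one (8.11%) and of 2.72% of all. The CArG box of serum response factor, also searched on both strands, stood in 8.11% of them and in 1.63% of all, and it can contain a CCAAT. The Btg2 window is shown because Btg2 fell on both this list and the list of cycle restraint, from 12.04, 12.07 and 12.13 to 9.76, 9.77 and 9.75. The cAMP response element, in capitals, has its first base at -166 from the start.
Btg2 promoter, chr1:134079106-134079405, minus strand: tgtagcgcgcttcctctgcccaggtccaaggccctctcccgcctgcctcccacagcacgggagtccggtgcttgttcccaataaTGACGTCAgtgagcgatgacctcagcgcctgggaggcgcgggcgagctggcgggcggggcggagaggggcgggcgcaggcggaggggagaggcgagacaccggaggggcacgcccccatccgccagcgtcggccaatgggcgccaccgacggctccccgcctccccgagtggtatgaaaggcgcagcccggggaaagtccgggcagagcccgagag

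Genes of the circadian clock and of FoxO factors and their targets were lower at 60 h as well. Of 17 circadian clock genes 12 fell and none rose, with a median of -1.24. Arntl, which encodes the core factor Bmal1, read 10.30, 10.30 and 10.31 in QSCs and 8.82, 8.83 and 8.84 at 60 h, and the output factor Dbp fell by 1.39. Sampling time of day was not given in the labels. Of 22 FoxO factors and targets 11 fell and 1 rose. Foxo1, a factor that promotes quiescence and atrophy programs, fell by 1.37, Foxo3 by 0.91, and Txnip, an inhibitor of glucose uptake, fell by 1.78. Nfat5, which answers osmotic stress, fell by 1.32 and Gli2, a mediator of Hedgehog signals, fell by 1.78. Most endothelial and pericyte markers fell on the same arrays, and the part of cell composition in these falls was not tested.

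Cytokine signalling fell in the receptors and transducers. Of 23 genes of the JAK-STAT pathway and interleukin 6 family receptors 13 fell and 1 rose. Osmr, the oncostatin M receptor, fell by 1.95, Stat3 fell by 1.79 and Socs3, a feedback inhibitor that Stat3 induces, by 1.18 on the log2 scale. Of 34 interferon response genes 18 fell and none rose, with a median of -0.60. Mx2, an antiviral GTPase, read 8.12, 7.97 and 7.79 in QSCs and 5.69, 5.81 and 5.91 at 60 h. In the same 60 h arrays Ptprc and macrophage markers rose and most endothelial markers fell. The part of cell composition in the falls of cytokine and interferon genes was not tested.

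Genes for energy and for building the cell rose. Of 91 genes of oxidative phosphorylation 62 rose and 2 fell, with a median of 1.02. The median was 1.02 as well for 77 mitochondrial ribosomal proteins, of which 56 rose, and 1.27 for 39 proteasome subunits, of which 30 rose. Cox5a, a subunit of cytochrome oxidase, went from 9.07, 9.13 and 9.03 to 10.34, 10.39 and 10.43. The 2 exceptions, Cox8b and Cox4i2, are isoforms of muscle fibers and of lung and smooth muscle. Of 32 genes of glycolysis and pyruvate metabolism 14 rose, with Eno3, the muscle enolase, up by 3.92 on the log2 scale.

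Ribosome genes did not follow as one block. Of 58 ribosomal proteins 3 rose and 3 fell, with a median of 0.01 that turned negative when arrays were centred or quantile normalized. Of 54 genes of ribosome biogenesis 29 rose and none fell, with a median of 0.69. Polr1b, a subunit of RNA polymerase I, went from 9.79, 9.83 and 9.70 to 10.75, 10.69 and 10.69. Fbl, the methylase fibrillarin of the nucleolus, read 10.40, 10.34 and 10.44 in QSCs and 10.85, 10.85 and 10.93 at 60 h, a step of 0.48 under the fold.

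Genes of sterol synthesis rose in old cells. Of 23 genes of cholesterol synthesis and LDL uptake 15 rose and 1 fell, with a median of 0.71. With quantile normalization 10 rose and 1 fell, with a median of 0.51. Hmgcs1, the synthase that commits acetyl units to the pathway, read 9.99, 9.96 and 9.94 in QSCs and 11.05, 11.11 and 11.14 at 60 h. Lss, which closes the sterol rings, rose by 3.16-fold and Sqle, the epoxidase before it, by 2.12-fold. Lpin1, which makes diacylglycerol, was the gene that fell. Among 33 antioxidant genes 14 rose and 6 fell: Gpx1, a cytosolic glutathione peroxidase, rose by 1.77, and the secreted Gpx3 fell by 2.53 on the log2 scale. Of 32 genes of fatty acid oxidation and lipid transport 10 rose and 10 fell, the falls including the transporters Abca8a and Abca8b and the rises the mitochondrial Cpt2.

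The myogenic factors leaned to falls. Of 17 genes 9 fell and 3 rose, against 11.7% and 17.8% of all genes, so the rises were near the share of all genes. Myf5 went from 11.45, 11.58 and 11.54 to 10.38, 10.42 and 10.43, a 2.16-fold fall. Myod1 read 12.49, 12.50 and 12.50 in QSCs and 11.77, 11.76 and 11.76 at 60 h, a 1.66-fold fall, so its highest values were in the uninjured group. Myog, which marks commitment to differentiation, rose by 3.24-fold, from 6.63, 6.80 and 6.70 to 8.40, 8.39 and 8.43. The late factor Myf6 was not called (log2 change -0.21). Among repressors of myogenesis, Msc fell by 2.05 and Id3 by 1.29.

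Contractile genes as a list stayed near the background of all genes. Of 55 contractile genes 7 rose and 7 fell, where 17.8% of all genes rose and 11.7% fell. Their median was -0.15, against -0.11 for all genes. Their mean level was 7.47 to 7.52 on the QSC arrays and 7.43 to 7.46 at 60 h. Ttn, which encodes titin, rose from 6.91, 6.91 and 7.06 to 9.55, 9.55 and 9.64. Myh3, the embryonic myosin heavy chain, rose by 1.97-fold, from 5.89, 5.77 and 5.98 to 6.83, 6.80 and 6.95. Tnnt3, a fast troponin (log2 change -0.15), and Acta1, skeletal actin (0.40), were not called. Of 31 genes of myoblast fusion and membrane repair 6 rose and 4 fell, which is near the shares of all genes. Mymk, the fusion protein myomaker, rose by 2.02-fold, and its partner Mymx was not called (log2 change -0.27). Of 26 adult myofiber genes 1 rose, Eno3, and 4 fell.

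Chromatin regulators shifted within their families. Of 14 genes of the Polycomb complex PRC2 and the demethylases of its mark, H3K27 methylation, 6 rose and 4 fell. Ezh2, the methylase of dividing cells, read 9.79, 9.83 and 9.75 in QSCs and 11.12, 11.10 and 11.18 at 60 h. Its partners Eed and Suz12 rose by 1.02 and 0.71, but neither call held throughout: Eed changed by 0.41 with its probe sets averaged and Suz12 by 0.50 with quantile normalization, which gave 4 rises and 5 falls in the list. Ezh1, the paralog of Ezh2 in resting cells, fell by 1.19 on the log2 scale. Kdm6b, which removes the mark, fell from 12.30, 12.29 and 12.29 to 10.55, 10.56 and 10.63. Of 14 genes of DNA methylation 4 rose and 5 fell: the maintenance pair Dnmt1 (7.39-fold) and Uhrf1 (18.8-fold) rose with replication, and Tet2, which oxidises methylcytosine, fell by 2.10-fold.

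Immune genes made up the other large group of rises. Of 35 monocyte and macrophage markers 32 rose and none fell, with a median of 2.60. Clec4e, a pattern receptor of macrophages, read 4.95, 5.23 and 5.54 in old QSCs and 10.63, 10.45 and 10.64 at 60 h, the third largest rise of all genes. Mrc1, the mannose receptor, went from 6.22, 6.21 and 6.01 to 10.69, 10.72 and 10.74, and Adgre1, which encodes F4/80, from 5.80, 5.87 and 5.62 to 9.50, 9.39 and 9.74. All 60 h arrays stood above all QSC arrays for these genes, as for every gene called higher. Cx3cr1 (log2 change 0.15), Trem2 (0.51) and Gpnmb (-0.03) were the 3 that were not called. The mean over the list was 6.53 to 6.57 on old QSC arrays and 9.12 to 9.20 on old 60 h arrays, and in young cells it was 6.27 to 6.36 in QSCs, 9.21 to 9.29 at 36 h and 7.51 to 7.58 at 60 h.

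Secreted immune signals and antigen presentation moved with these markers. Of 43 chemokines and inflammatory cytokines 21 rose and 10 fell, with Ccl6 up from 6.16, 6.59 and 6.32 to 10.46, 10.54 and 10.33. Il1b, the fever cytokine, rose by 11.8-fold and Pf4, a chemokine of platelets and macrophages, by 15.7-fold. In the other direction Cxcl10, an interferon-induced chemokine, fell by 3.22-fold, and Ccl11, eotaxin, fell by 2.76 on the log2 scale. Of 21 genes of MHC class II and cathepsins 12 rose and 2 fell, with H2-Aa up by 4.79-fold and Ctsd, a lysosomal protease, by 3.20-fold. Of 19 complement genes 6 rose and 8 fell: the rises were the C1q chains and the receptors C3ar1 and C5ar1, with properdin (Cfp), all made by macrophages. The part of macrophage RNA in these groups was not tested.

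Markers of the other cells that a muscle digest can hold did not rise as macrophage markers did. Of 20 endothelial markers 15 fell and 1 rose, and the list mean lay between 8.68 and 8.69 on the QSC arrays and between 7.78 and 7.80 at 60 h. The one that rose, Esm1, is a secreted proteoglycan. Of 16 pericyte and smooth muscle markers 9 fell and none rose, with Rgs5 down from 11.12, 11.00 and 11.06 to 8.94, 8.90 and 9.02. Markers of both vessel cell types were thus higher on the old QSC arrays than on the 60 h arrays. Of 20 markers of fibro-adipogenic progenitors and fibroblasts 5 rose and 3 fell, where 17.8% of all genes rose and 11.7% fell. Among them Pdgfra, their defining receptor, was up by 2.06-fold and Dpt, a matrix protein, down by 4.03-fold. Lymphocyte markers were not called except Il7r, which rose by 2.57 on the log2 scale and is also made by monocytes. Neutrophil markers gave 1 rise and 3 falls of 16.

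Growth factor genes fell more often than they rose, and matrix genes did not lean clearly either way. Of 30 genes of FGF and EGF receptors and their feedback 9 fell and 3 rose, with Fgfr1 down from 12.42, 12.48 and 12.48 to 10.94, 10.91 and 10.90 and Fgfr4, the receptor of myogenic cells, at a log2 change of -1.82. Of 53 genes of TGF-beta, BMP and activin signalling 22 fell and 4 rose. Bmp4, a ligand that holds back differentiation, fell by 5.13-fold, and Inhba, the activin A subunit, rose by 2.69 on the log2 scale. Of 20 genes of the IGF axis 8 fell and 1 rose, Igf1r and Irs2 among the falls. Of 53 matrix glycoproteins, laminins and matrix enzymes 17 fell and 15 rose. Timp1, an inhibitor of metalloproteases, went from 10.07, 10.06 and 10.06 to 12.03, 11.98 and 12.03, and Lama2, the laminin chain of the basal lamina, fell by 1.52. Of 43 collagens 7 fell and 5 rose, against 11.7% and 17.8% of all genes (12 and 3 with quantile normalization). Col4a1 of basement membranes was down by 2.01-fold, and Col1a1 of fibrillar matrix had a log2 change of 1.34.

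The old response was then set against the young one, gene by gene, as the difference of the 2 changes in one limma fit. The difference passed an adjusted p under 0.05 and a fold of at least 1.5 for 1788 genes (8.97%), of which 1358 (6.81%) were more positive in old cells and 430 (2.16%) more negative. Centring each array on its median, which lowered the median difference from -0.04 to -0.14, made this split 1016 and 742, and quantile normalization made it 1192 and 646. Direction itself seldom differed: 2772 genes rose and 1803 fell in both ages, while 8 genes rose in old and fell in young cells and 1 did the reverse. Among the 1358, 411 fell in both ages but less in old cells, 299 fell in young cells only, 299 rose in old cells only, 206 rose in both but more in old cells, and 135 were called in neither. The larger part of the gap lay at 60 h for 680 of them and in QSCs for 678. Among the 430 the gap was larger in QSCs for 311.

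Genes were also chosen by their change in YFP-sorted young cells, a choice that used no VCAM array. It follows the young response and leaves out changes particular to old cells. A shallower fall in old cells is thus partly built into it. Of the 2556 genes that fell in YFP-sorted young cells, 74.3% fell in old cells and 78.6% in young VCAM-sorted cells, with median log2 changes of -0.87 and -1.03. The difference was called more positive in old cells for 23.4% of these genes and more negative for 3.79%, against 6.81% and 2.16% of all genes. For the 3433 genes that rose in YFP-sorted cells the medians were 1.09 in old cells and 1.02 in young, and the difference was called for 9.93% and 4.78%. With arrays centred on their medians the shares were 19.1% and 5.48% for the genes that fell and 7.28% and 7.69% for those that rose, so the lean toward more positive values in old cells held under that scaling for the falling genes alone.

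Many quiescence genes fell less in old cells. Of the 32 identity and quiescence markers 16 differed, all of them more positive in old cells, against 6.81% of all genes. The medians were -0.92 in old and -1.41 in young cells. Chodl went from a mean of 12.32 to 9.46 in old cells and from 13.02 to 7.64 in young cells, a difference of 2.51 ± 0.09 (SE; limma adjusted p = 1.2e-16). Calcr, which fell by 3.30 in old cells, fell by 5.13 in young cells. For both genes the old mean was lower than the young mean at rest and higher at 60 h. Heyl (difference 1.42), Hes1 (1.08) and Hey1 (0.87) behaved likewise at rest: their old QSC means were 9.48, 10.08 and 9.60 and their young QSC means 10.82, 11.30 and 10.48. At 60 h the 3 means were 7.82, 8.70 and 7.91 in old cells and 7.75, 8.83 and 7.93 in young cells, so these Notch targets differed between the ages mainly at rest. Of 45 immediate early genes 27 were more positive and 1 more negative in old cells, against 6.81% and 2.16% of all genes. Their medians were -1.19 in old and -1.84 in young cells. For Meg3 the difference was 1.31, and 14 of the 40 miRNA genes of its locus differed, none of them more negative in old cells.

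**Figure D4:**
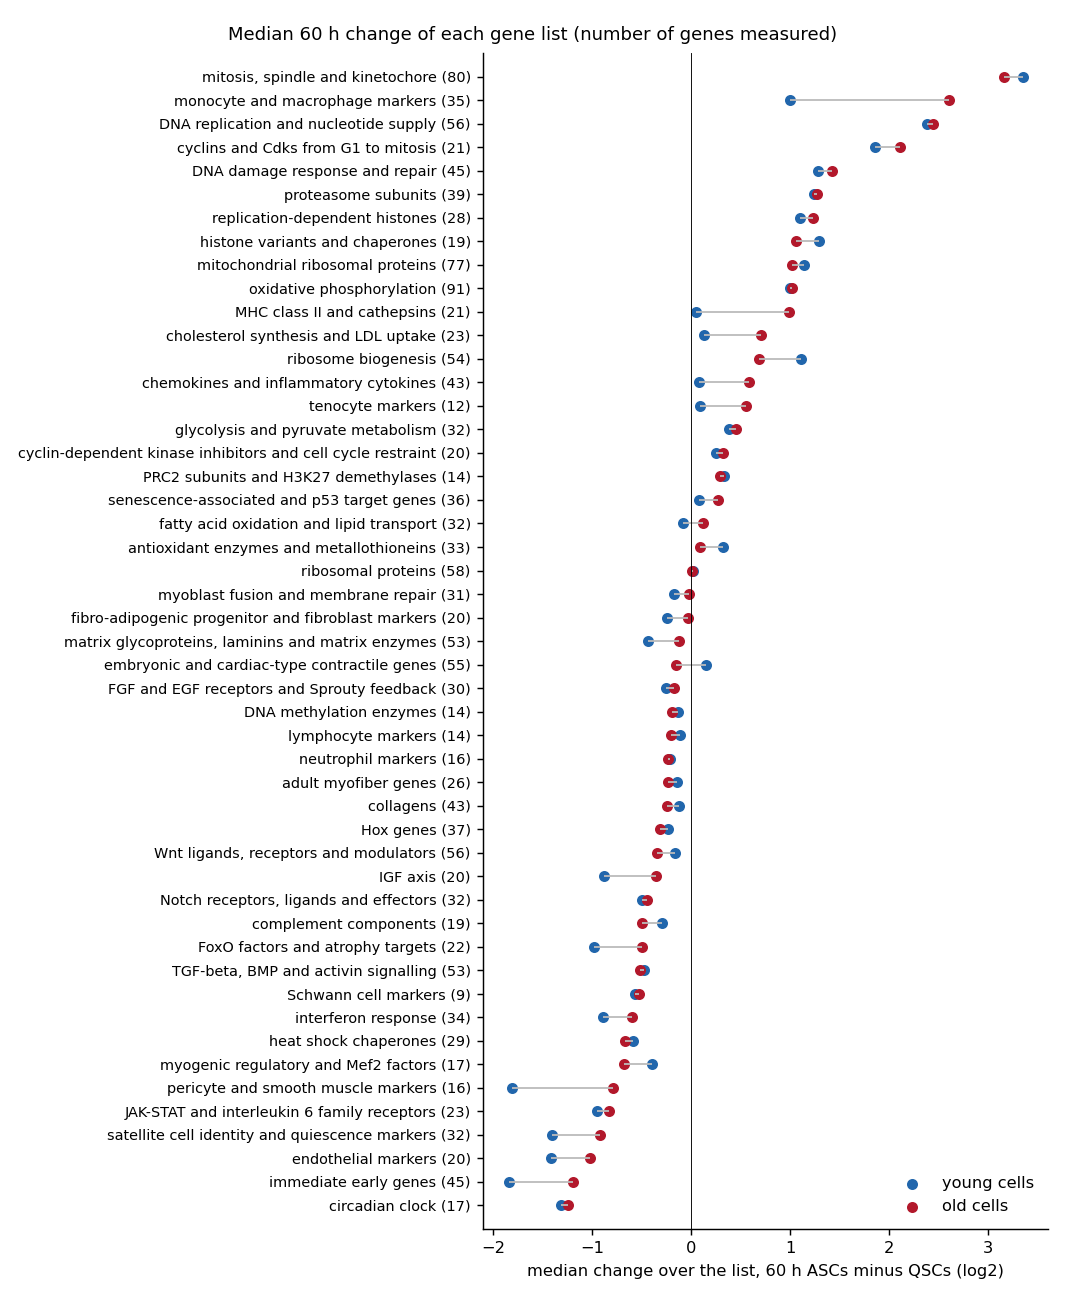
Median log2 change from QSC to 60 h ASC of each gene list in young cells and in old cells, 1 row per list. Mitosis lies furthest to the right at both ages (3.16 in old and 3.35 in young cells), and the macrophage list is the one in which old and young stand furthest apart.

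The median rise of mitosis genes was 3.16 in old and 3.35 in young cells, and that of replication genes 2.44 and 2.38. Of the 80 mitosis genes 7 differed in each direction, against 6.81% and 2.16% of all genes, and of the 56 replication genes 2 were more positive and 1 more negative (4 and 10, and 0 and 2, with arrays centred on their medians). Hells (difference 0.91) and Top2a (0.90, or 0.55 and not called with its probe sets averaged) started from lower QSC means in old cells: Top2a read 6.39 in old QSCs and 7.69 in young QSCs, and 11.68 and 12.08 at 60 h. Ccnd1 rose by 1.97 in old cells and was not called in young cells (0.57), with QSC means of 10.11 and 11.61 and 60 h means of 12.08 and 12.18. For both Top2a and Ccnd1 the gap between the ages was wider at rest than at 60 h. The mean level of the mitosis list was 6.45 to 6.48 in old QSCs and 9.63 to 9.72 at 60 h, and 6.81 to 6.88 and 10.02 to 10.15 in young cells.

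Macrophage markers differed the most. Of the 35 markers 30 were more positive in old cells and none more negative, and 24 rose in young cells. Of all genes 6.81% were more positive and 2.16% more negative. Ccr1, a chemokine receptor of monocytes, rose from a mean of 4.55 to 8.10 in old cells and from 4.38 to 5.19 in young cells, and the difference of 2.74 ± 0.17 (SE; limma adjusted p = 2.9e-12) was the largest of all genes. Clec4e (2.69), Clec4n (2.66), Ccl6 (2.62), Il1b (2.54) and Cytip (2.48), all expressed by myeloid cells, followed. At 36 h the young means of Ccr1, Clec4e and Ccl6 were 7.64, 10.78 and 11.38, close to or above the old 60 h means of 8.10, 10.57 and 10.44. Of 21 MHC class II and cathepsin genes 12 were more positive, and 18 of 43 chemokines were more positive and 2 more negative. Vessel markers moved in the same direction from falls: pericyte markers differed in 13 of 16 cases, all more positive in old cells, with log2 changes of -2.10 in old and -4.27 in young cells for Rgs5. Pecam1 was 8.69 at 60 h in old cells and 7.34 in young. The part of other cell types' RNA in the genes that differed between the ages was not tested.

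Cholesterol genes differed in 12 of 23 cases, all more positive in old cells, against 6.81% of all genes. The list mean lay between 8.93 and 8.98 in old QSCs and between 9.54 and 9.55 in old 60 h ASCs. In young cells it lay between 9.36 and 9.42 at rest and between 9.37 and 9.43 at 60 h. Lss showed this gene by gene, with QSC means of 7.25 in old and 8.18 in young cells and 60 h means of 8.91 and 8.52. Of the 43 collagens 11 were more positive and 2 more negative, and of the 53 matrix genes 22 and 5, against 6.81% and 2.16% of all genes. Col3a1 had log2 changes of 0.51 in old cells (not called) and -1.21 in young cells. Igf1 and Cd36 fell in young cells only.

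The genes that were more negative in old cells were fewer, and muscle and nucleolar genes stood among them. Of 55 contractile genes 12 were more negative and 4 more positive, against 2.16% and 6.81% of all genes, so only the negative count stood apart. In young cells 18 rose against 7 in old, where 16.6% and 17.8% of all genes rose. Tnnt3 went from a mean of 8.34 to 8.19 in old cells and from 7.82 to 9.14 in young cells (difference -1.47), and Smyd1, a methylase needed to build sarcomeres, differed by -1.43. At 84 h young means of these genes were 11.03 and 10.11, so the old 60 h values lay below those of young cells at 60 h and at 84 h. Ttn differed by -1.47 and Myod1 by -0.61. Of 54 ribosome biogenesis genes 14 were more negative and none more positive, 46 having risen in young cells, but the list mean at 60 h was 10.84 to 10.88 in old and 10.86 to 10.94 in young cells. The ages differed there in QSCs, at 10.13 to 10.17 and 9.75 to 9.85.

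Single genes with large negative differences followed both patterns. Tac1, the precursor of substance P, fell from a mean of 7.65 to 6.40 in old cells and rose from 4.62 to 5.50 in young cells, the only gene with that pair of directions. Dynap, a small membrane protein, rose by 1.25 in old and by 3.25 in young cells. Has2, which makes hyaluronan, went from 8.95 to 10.55 in old and from 7.48 to 10.79 in young cells. Vaultrc5, a vault RNA, and Trank1 had log2 changes of -2.80 and -1.70 in old cells from QSC means of 9.94 and 7.91, where the young QSC means were 8.04 and 6.01. For Tac1, Has2, Vaultrc5 and Trank1 the ages stood apart mainly at rest.

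**Figure D5:**
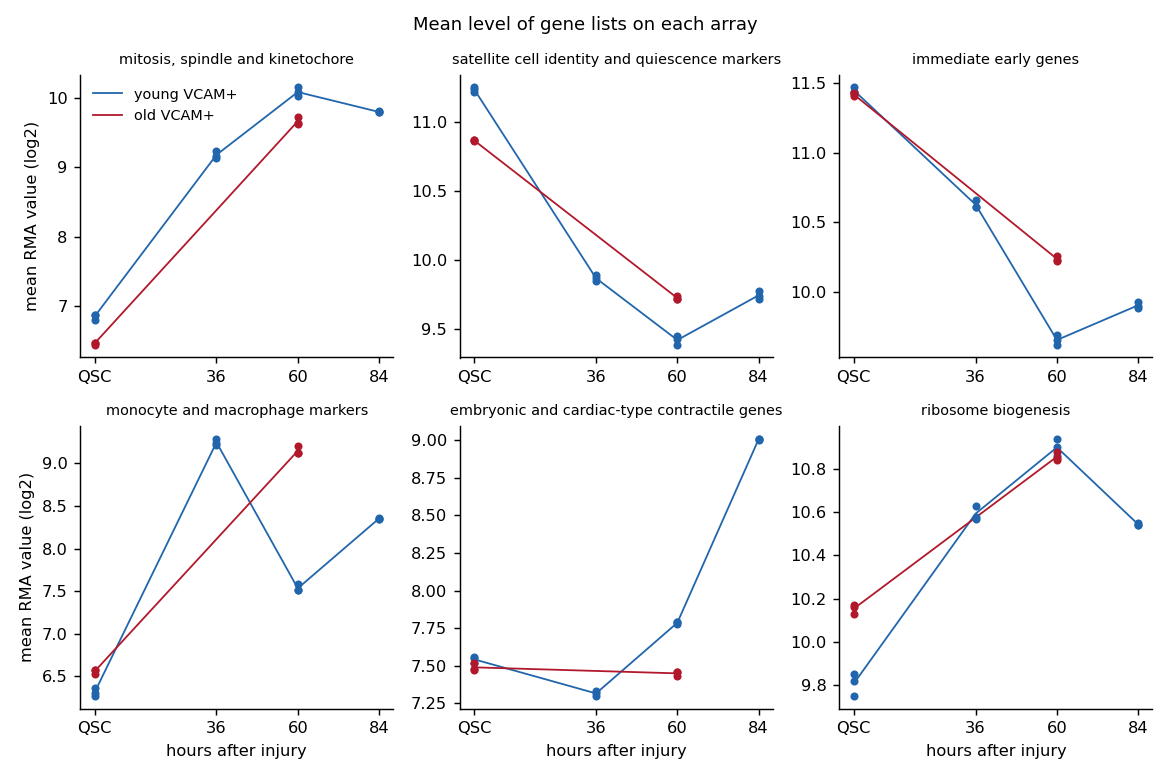
Mean log2 level of 6 gene lists on each array, in young cells at rest and at 36, 60 and 84 h after injury and in old cells at rest and at 60 h. Old 60 h arrays match young 60 h arrays most nearly for ribosome biogenesis, lie near young 36 h arrays for macrophage markers, and lie below young 60 h arrays for mitosis and contractile genes.

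Over all 19938 genes the old 60 h mean lay nearest the young 36 h mean, at a root mean square log2 distance of 0.29, against 0.32 from young 60 h, 0.35 from young 84 h and 0.76 from young QSCs. Young 60 h cells were 0.50 from young 36 h cells. Satellite cell markers gave list means of 9.72 to 9.74 in old cells at 60 h, between 9.85 to 9.89 at 36 h and 9.39 to 9.45 at 60 h in young cells. Contractile genes, at 7.43 to 7.46, lay between 7.30 to 7.33 and 7.78 to 7.79. These distances are descriptions, and the macrophage genes are among those they were taken over.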

How the data were processed

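RNA of sorted cells was read on 30 arrays in 10 groups of 3, grouped by their sample titles. Per the labels and methods, the authors made the deposited log2 values in Affymetrix Expression Console by RMA (background correction, quantile normalization and a median polish over probes). Their versions were not given. The values ran from 2.99 to 15.11, with array medians of 7.03 to 7.16, so arrays were already on one scale, and 3 arrays a group limit the precision. RMA compresses changes of dim genes, and 24.2% of genes had an old QSC mean under 6. No detection calls were used.

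Of 35556 probe sets, 21789 had 1 gene symbol in the platform annotation (21698 matched to RefSeq GRCm38.p6 through the Entrez gene), 1621 had several and 12146 none. The brightest probe set was kept for 998 genes with more than 1. Differences were tested with limma 3.58.1 (R 4.3.3), fitting the 10 group means on all 30 arrays with moderated variances and two-sided tests. P-values were adjusted by Benjamini-Hochberg over 19938 genes, and a call needed an adjusted p under 0.05 and a fold of at least 1.5. Promoters were found for 15614 genes. The fits were tested on simulated data first.

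Within groups, arrays correlated at 0.9965 to 0.997 in old QSCs and 0.9976 to 0.9982 in old 60 h ASCs across genes. The smallest mean absolute difference between arrays of a group was 0.0902, so none was a copy of another. Named genes were the 12 largest rises and falls, up to 4 genes with the largest change per list, the 8 largest differences between ages in each direction, listed genes called in that difference, and genes the study names. The 12 largest were taken from called genes whose arrays did not overlap between the groups. Further genes were added for their known roles after their values were seen. The members, lists and the fold threshold were chosen with earlier results of these data known. Alternatives changed the scaling, the filter on dim genes, the fold, the arrays fitted, the variance prior, the probe sets, the replicates and the pairing.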

Additional observations from a re-analysis of the deposited data

Results flagged for a closer look

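The 60 h response differed between old and young cells for 1788 genes, each tested as a difference of changes in limma. Among named myeloid genes the difference (old minus young, log2) was 2.74 for Ccr1, 2.69 for Clec4e, 2.66 for Clec4n, 2.62 for Ccl6, 2.54 for Il1b and 2.48 for Cytip. Among genes that fell less in old cells it was 2.52 for Abca8a, 2.51 for Chodl, 1.83 for Calcr, 1.66 for Chrdl2, 1.60 for Hmcn2, 1.52 for both Dmd and Cd34, 1.31 for Meg3, 1.18 for Mir380, 1.00 for Foxo1, 0.91 for Cebpd, 0.90 for Myf5, 0.78 for Clmn, 0.75 for Kcnn3 and 0.68 for Erfe. Among Notch targets it was 1.42 for Heyl, 1.08 for Hes1 and 0.87 for Hey1. Among cycle genes it was 1.07 for Racgap1, 0.93 for H1f5, 0.91 for Hells and 0.90 for Top2a.

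More negative in old cells were Tac1 (-2.13), Igkv4-91 (-2.10), Dynap (-2.00), Vaultrc5 (-1.84), Has2 (-1.71), Trank1 (-1.66), BC023105 (-1.51), Ttn (-1.47), Tshr (-1.03), Slc15a2 (-0.74) and Myod1 (-0.61). Igkv4-91 read 6.26, 6.26 and 6.31 in old QSCs and 4.26, 4.42 and 4.34 at 60 h, with young means of 4.37 and 4.54. It belongs to an immunoglobulin gene family of near-identical copies, so its identity is uncertain. The rank of a gene among these differences follows from the choice of the most extreme genes and was not tested again on other arrays.

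Probe sets that named no single gene also changed in old cells. Of the 1621 with several symbols 388 were called, 244 up and 144 down (23.9%). Of the 12146 without a symbol 3053 were called, 1378 up and 1675 down (25.1%), against 29.5% of the genes tested.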

How the results depend on the processing

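The count of genes called in old cells moved by more than 1.5 times with the fold threshold alone. With no fold it was 13799 (5964 up, 7835 down) and with a fold of at least 2 it was 3098 (2044 up, 1054 down). The young counts were 11910 and 3217, and the counts of differences between the ages 6249 and 492. Leaving out each array in turn gave 5833 to 6025 genes in old cells, 5774 to 5956 in young cells and 1749 to 1892 for the difference. Centring gave 3506 rises and 2404 falls in old cells. In old cells the replicate numbers did not pair the arrays: same-numbered arrays correlated in their deviations at -0.075, 0.0199 and -0.15. In young cells same-numbered arrays correlated at 0.303, 0.0225 and 0.21, and arrays of unlike number at -0.302 to 0.146. Whether young arrays shared a replicate batch was not tested. A replicate block gave 5890, 5831 and 1783 genes. In old cells all 5890 genes with a fold of at least 1.5 had passed the p, and a block leaves the fold unchanged. The equal count in old cells is thus no test of pairing.

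Of named genes, 3 values near 0 changed sign: Igf1 in old cells (-0.01) read between -0.05 and 0.02 with single arrays left out, above 0 without old 60 h replicate 1 or 2, and Rbpj (-0.01) between -0.04 and 0.01, above 0 without old QSC replicate 1. Quantile normalization brought the rises of Cdkn2c (0.58), Dll1 (0.48), Klf10 (0.54) and Suz12 (0.50) under the fold, and put Cdkn2a (0.63), Cdh15 (-0.69) and Smyd1 (0.65) past it. Cdkn2a (0.62) and Timeless (0.60) also passed without old QSC replicate 3. Averaging the probe sets of a gene lowered Eed to 0.41 and the age difference of Socs3 to 0.07, Top2a to 0.55 and Fbl to -0.54, so those probe sets disagree. Centring brought the age differences of Hspa1a (0.58), Id3 (0.56), Lama2 (0.58), Mir154 (0.54) and Tob1 (0.54) under the fold, and quantile normalization those of Myod1 (-0.53) and Erfe (0.56). With centring the contractile list gave 3 genes more positive and 17 more negative in old cells, ribosome biogenesis 0 and 20, and satellite cell markers 16 and 0. Dim probe sets bound the changes that can be seen at low levels.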

Other observations

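Genes of position, of Wnt signalling and of p53 were measured as well. Of 37 Hox genes, which keep a cell's place along the body axis, 2 rose and 5 fell in old cells, where 17.8% of all genes rose and 11.7% fell, so the falls were near the share of all genes. The changes were -0.98 for Hoxa3, -0.79 for Hoxc8 and 0.79 for Hoxc11 (log2). Of 56 Wnt ligands, receptors and modulators 11 fell and 2 rose. Ror1, a Wnt5a receptor, read 11.51, 11.48 and 11.43 in old QSCs and 9.36, 9.32 and 9.33 at 60 h, and the receptor Fzd4 fell by 1.62. Of the secreted Wnt inhibitors Sfrp5 fell by 1.77 and Sfrp2 rose by 1.53. Of 36 senescence-associated and p53 target genes 12 rose and 10 fell, with Ccng1 up by 2.50, the protease Mmp3 up by 2.54 and the death receptor Fas at a log2 change of -2.73.

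Further markers of other cells were measured. Of 12 tenocyte markers 6 rose and 2 fell (2 and 2 with quantile normalization), with Cilp at 0.98 and Chad at -2.20. Of 9 Schwann cell markers none rose and 4 fell, with Cdh19 at -1.25. Among neutrophil markers Ngp fell by 1.62 and S100a9 by 0.98, and Mmp9, also made by macrophages, rose by 0.69.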
